A study of Rattus norvegicus and Mus musculus with 251 samples.

Results

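The opioid receptor genes are Oprm1, Oprd1, Oprk1 and Oprl1, which encode the mu, delta, kappa and nociceptin receptors. They were chosen by name, and all 4 were matched by symbol among the 46078 mouse gene identifiers of the deposited count table. RNA was measured in 62 mouse libraries, 30 from prefrontal cortex (PFC) and 32 from nucleus accumbens (NAc), made from 0.5 mm tissue punches of C57BL/6J mice of both sexes. Every mouse drank either saline or a morphine solution, and the labels used here give neither an age nor a dose. The saline group had 6 PFC and 7 NAc libraries. Mice on chronic morphine gave 8 libraries per region, mice 24 h after morphine gave 9 per region, and mice 2 weeks after morphine gave 7 in PFC and 8 in NAc. The labels number the libraries and 30 numbers occur in both regions, but nothing says whether a number is an animal. P-values therefore measure the spread between these libraries. Rat libraries of the same series were not analysed here.

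Opioid receptors are G protein-coupled receptors in the neuronal membrane that couple to inhibitory G proteins, lower cyclic AMP, open inwardly rectifying potassium channels and close presynaptic calcium channels. Morphine acts chiefly at the mu receptor. Enkephalins, from the precursor gene Penk, act at the delta and mu receptors, dynorphins, from Pdyn, act chiefly at the kappa receptor, and nociceptin, from Pnoc, acts at the receptor encoded by Oprl1. In the nucleus accumbens, mu and kappa receptor signalling is known for opposing effects on reward, and the kappa receptor also sits on dopamine axons whose cell bodies, and so most of whose mRNA, lie outside the accumbens.

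The 4 coding sequences are related, which bears on whether reads can be assigned to 1 receptor. Over the aligned coding sequence, the pairs shared 67.4% (Oprk1 and Oprl1) to 72.0% (Oprm1 and Oprd1) of their bases. The stretch around the DRY motif at the inner end of the third transmembrane helix, a signature of this receptor class, is shown for each gene so that the motif can be compared. Each stretch is 96 bases of the GENCODE M21 coding sequence (GRCm38), 5′ to 3′, with the codons of the motif in capitals.
Oprm1: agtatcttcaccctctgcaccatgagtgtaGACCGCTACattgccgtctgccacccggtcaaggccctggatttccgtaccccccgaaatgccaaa
Oprd1: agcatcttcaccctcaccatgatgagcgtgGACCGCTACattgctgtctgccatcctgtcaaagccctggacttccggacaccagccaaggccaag
Oprk1: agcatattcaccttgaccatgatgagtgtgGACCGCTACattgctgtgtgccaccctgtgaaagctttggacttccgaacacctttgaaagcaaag
Oprl1: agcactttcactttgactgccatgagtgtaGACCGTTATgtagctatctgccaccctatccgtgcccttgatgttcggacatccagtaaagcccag
Oprd1 and Oprk1 were identical at 80 of the 96 bases, and Oprk1 and Oprl1 at 63. The pairs among Oprm1, Oprd1 and Oprk1 shared 72.9% to 83.3% of the stretch, more than of their whole coding sequence, and the pairs with Oprl1 65.6% to 66.7%, less than of theirs (67.4% to 68.3%). The longest run of identical bases between any annotated transcripts of a pair was 27 bases (Oprm1 and Oprk1), shorter than a read of 75 bases.

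Oprm1 (ENSMUSG00000000766) lies on the plus strand at chr10:6758506-7038198 (GRCm38) and has 31 annotated transcripts. Ipcef1, a gene on the minus strand, overlaps it and shares 96 exonic bases with it, and Gm10945 overlaps it without shared exonic bases. Oprd1 (ENSMUSG00000050511) lies on the minus strand at chr4:132110726-132144486 with 1 transcript. Oprk1 (ENSMUSG00000025905) lies on the plus strand at chr1:5588466-5606131 with 5 transcripts, and Oprl1 (ENSMUSG00000027584) on the plus strand at chr2:181715016-181720985 with 11. Whether the authors' counting used strand is not given in the sources used here. The deposited table has a row for ambiguous reads, but how reads in the bases shared by Oprm1 and Ipcef1 were counted is not known. Levels of Ipcef1 are therefore given beside those of Oprm1.

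Library totals in PFC lay between 24936879 and 41532464 counts, apart from 1 library of 5182601, and those in NAc between 22387525 and 43963295. The shallow PFC library, number 10 at 2 weeks, had 0 counts of Oprm1, Oprk1 and the striatal marker Drd1. Number 27, on chronic morphine and labelled female, goes against its sex label in both regions. In PFC it had no count of Xist, which was at 5.92 log2 CPM (counts scaled to a common library size, on the log2 scale with a prior count of 2) or more in the 12 other libraries labelled female, and Ddx3y at 5.72, inside the male range of 5.59 to 6.00. In NAc its Xist was at 0.12, against 7.42 or more in the others labelled female. Male number 28, also on chronic morphine, had Xist at 4.19 in NAc, beside a male median of -1.16. The labels name the cell type neuron, whereas the oligodendrocyte marker Mbp, a myelin protein gene, had a median of 11.43 log2 CPM in PFC and 11.78 in NAc, so these are values of whole tissue. Marker genes separated the regions. The mean log2 CPM of 12 striatal projection neuron genes, called the striatal score here, was 0.14 to 3.29 in PFC and 4.74 to 8.56 in NAc, and the mean of 10 cortical projection neuron genes was 6.15 to 6.84 in PFC and 1.73 to 4.58 in NAc. The NAc punches thus differed widely among themselves in striatal markers, and numbers 6 (saline) and 25 (chronic morphine) lay more than 2 log2 units from the NAc median of 7.40. In bulk tissue, fewer cells of a type and less RNA per cell cannot be told apart.

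The first comparison concerned where each receptor is expressed. Oprk1 and Oprm1 were far higher in NAc than in PFC, Oprl1 was moderately higher, and Oprd1 was the only receptor of the 4 with a lower level in NAc, a difference that did not pass the test. For Oprk1, the kappa receptor, PFC libraries had 0 to 165 counts (median 40) and NAc libraries 599 to 2014 (median 892.5). The lowest NAc library, at 4.10 log2 CPM, stood above the highest PFC library at 2.52, so the regions did not overlap. The share of all genes with such separate ranges was not counted. Across all treatments the NAc level was 18.6-fold that of PFC (log2 difference 4.22 ± 0.18 SE, 95% confidence interval 3.85 to 4.59, edgeR adjusted p = 5.45e-27).

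Oprm1, the mu receptor and main target of morphine, was close to the limit of detection in PFC, with 0 to 83 counts and a median of 13.5. Of the 30 PFC libraries, 2 had 0 counts and 11 had fewer than 10. In NAc it had 69 to 259 counts with a median of 170.5, and 1 PFC library, number 25, reached into the NAc range. The NAc level was 8.77-fold that of PFC (log2 difference 3.13 ± 0.22 SE, 95% confidence interval 2.69 to 3.58, edgeR adjusted p = 2.85e-18). The overlapping gene Ipcef1 went the other way, being lower in NAc (log2 difference -2.56 ± 0.12 SE, edgeR adjusted p = 3.49e-26), with medians of 7.18 log2 CPM in PFC and 4.52 in NAc. Without the libraries far in striatal score, the NAc minus PFC difference was 3.10 for Oprm1 and 4.22 for Oprk1, and without number 27 it was 3.09 and 4.17.

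Oprl1, the nociceptin receptor, had 306 to 2437 counts (median 1337) in PFC and 1071 to 4095 (median 2154.5) in NAc. The NAc level was 1.41-fold higher (log2 difference 0.49 ± 0.09 SE, edgeR adjusted p = 3.17e-06), and 25 of the 30 numbers with both regions were higher in NAc, although the ranges overlapped. Oprl1 averaged 5.32 log2 CPM in the 5 NAc libraries with the highest striatal scores and 6.61 in the 5 with the lowest. Its PFC means were 5.59 in libraries labelled female and 5.54 in those labelled male. The part of the striatal score in the regional differences was not tested. Oprd1, the delta receptor, had 56 to 996 counts (median 512.5) in PFC and 217 to 970 (median 456.5) in NAc. The ranges overlapped almost fully. Oprd1 averaged 4.46 log2 CPM in the 5 NAc libraries with the highest striatal scores and 3.45 in the 5 with the lowest. Its PFC means were 4.03 in libraries labelled female and 4.19 in those labelled male. Its log2 difference was -0.25 ± 0.12 (SE, 95% confidence interval -0.48 to -0.02), short of the threshold of 0.05 at an edgeR adjusted p of 0.0534, and 7 of 30 numbers were higher in NAc. Thus 3 of 4 receptors were called higher in NAc and 0 lower, beside 36.5% of all 19266 genes tested called higher and 29.7% lower (66.2% in all). The plot of every library shows the regions apart for Oprk1 and overlapping for Oprm1, Oprl1 and Oprd1.

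**Figure D1:**
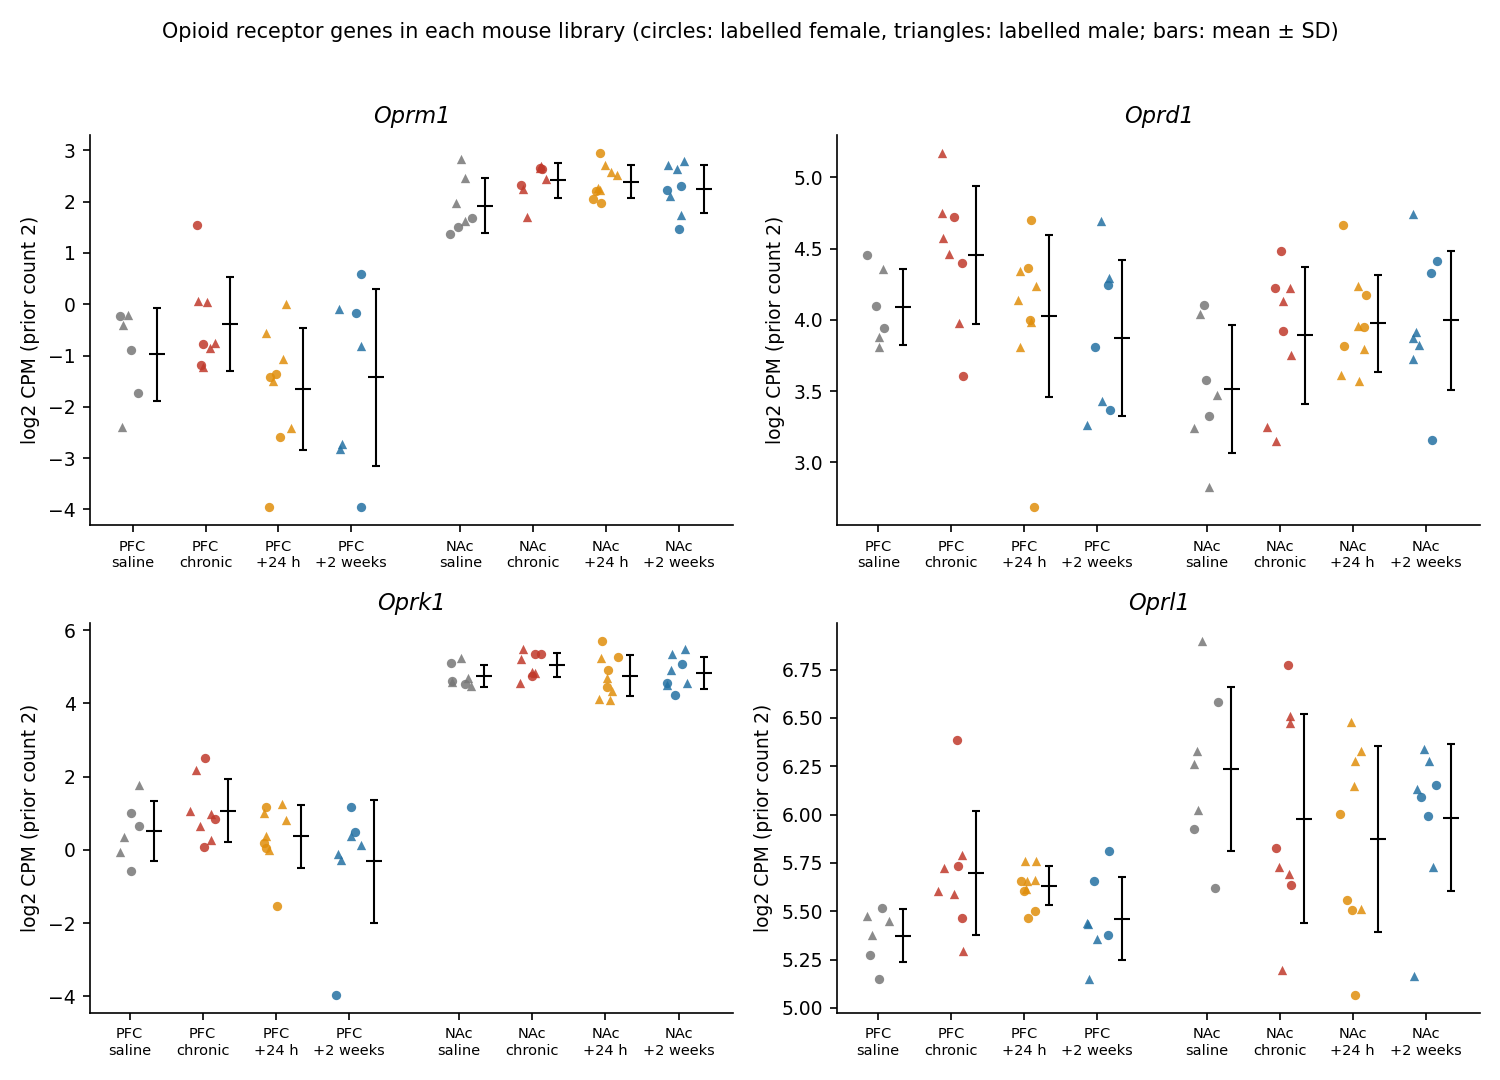
Each point is 1 library, placed by region and treatment, with log2 CPM (log2 CPM, prior count 2) of the named receptor on the y axis; circles are labelled female, triangles male, and bars give the mean and SD of the group. Oprk1 shows 2 separate bands, with the lowest NAc library at 4.10 and the highest PFC library at 2.52. The PFC and NAc ranges of Oprd1 overlap, and a value of -3.96 stands for 0 counts. The share of all genes with separate ranges was not counted.

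In saline mice alone the regional order was the same. The NAc level of Oprk1 was 17.3-fold that of PFC (log2 difference 4.11 ± 0.39 SE, edgeR adjusted p = 9.93e-13), that of Oprm1 6.98-fold (2.80 ± 0.47, edgeR adjusted p = 2.50e-06) and that of Oprl1 1.83-fold (0.87 ± 0.19, edgeR adjusted p = 0.000264). Oprd1 was again lower without passing the test (-0.54 ± 0.25, edgeR adjusted p = 0.0871). Here too 3 of 4 receptors were called higher, beside 17.4% of all genes called higher and 18.5% lower (35.9% in all). These values came from 6 PFC and 7 NAc saline libraries that also enter the comparison across all treatments.

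To compare the receptors with each other, counts were divided by gene length, giving CPM per kilobase of gene length. With the union of annotated exons as length, the median PFC levels were 12.5 for Oprl1, 4.52 for Oprd1, 0.141 for Oprk1 and 0.0600 for Oprm1. The ranges of Oprl1 (9.45 to 22.2) and Oprd1 (1.58 to 8.95) did not overlap, nor did that of Oprd1 with either lower receptor, whereas Oprk1 (0 to 0.618) and Oprm1 (0 to 0.354) overlapped. In NAc the medians were 17.7 for Oprl1, 3.68 for Oprd1, 3.02 for Oprk1 and 0.600 for Oprm1. There Oprd1 (1.75 to 6.63) and Oprk1 (1.86 to 5.74) were neighbours whose ranges overlapped, and their order depended on the length used. With the longest annotated transcript instead, the NAc median of Oprk1 was 5.90 and that of Oprd1 3.68, because the exon union of Oprk1 (9151 bases) is longer than its longest transcript (4675 bases). Oprl1 was highest and Oprm1 lowest in NAc with either length. The level of Oprm1 itself depended on the length, its exon union being 8037 bases and its longest transcript 2420. With the longest transcript its median was 1.99 in NAc and 0.199 in PFC.

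**Figure D2:**
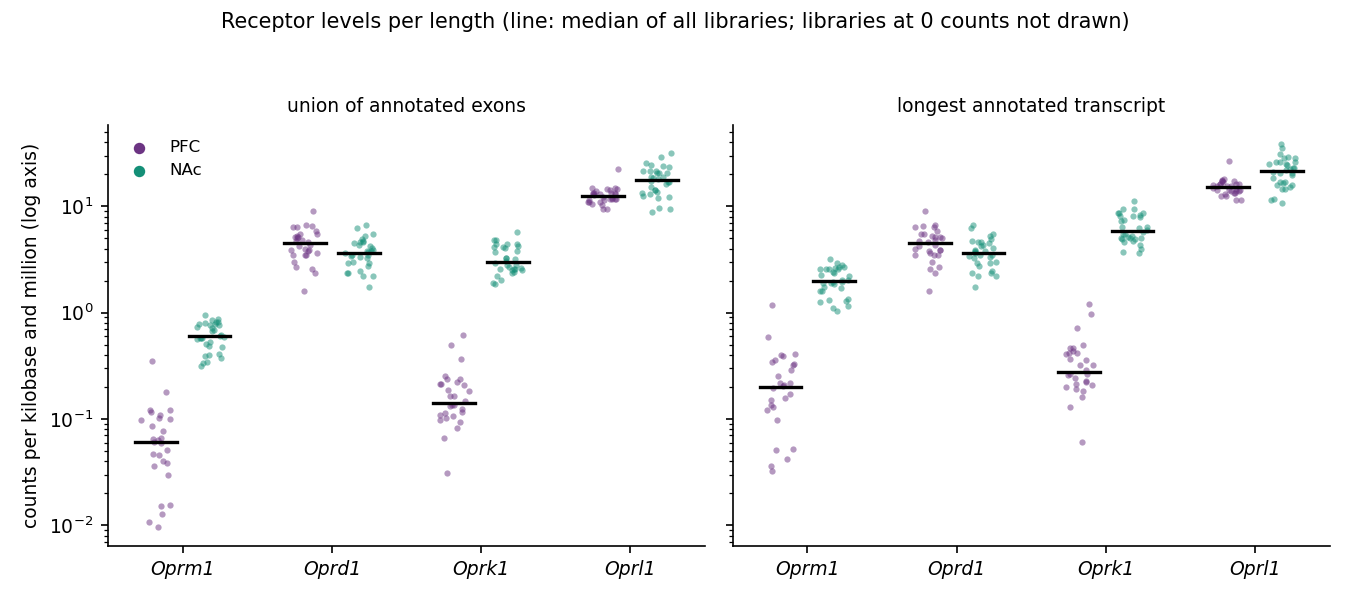
Receptor levels in CPM per kilobase of gene length on a log axis for each library, in PFC (purple) and NAc (green), using the union of exons (left) or the longest transcript (right) as length; black lines are medians over all libraries, and libraries at 0 counts are not drawn. Oprl1 lies at the top of both panels, and the NAc medians of Oprd1 and Oprk1 change order between them, from 3.68 against 3.02 to 3.68 against 5.90.

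The second comparison asked whether receptor expression differed from saline during morphine drinking or after it. No receptor was called at any stage in either region. In PFC edgeR called 0 of 12 receptor and stage pairs, with 2 at an unadjusted p under 0.05, beside 0.417% of all 17966 genes called under chronic morphine, 0.0779% at 24 h and 0.00557% at 2 weeks. Of all PFC genes, 7.91%, 3.01% and 5.04% had an unadjusted p under 0.05 at these stages. In NAc it called 0 of 12, with 3 at an unadjusted p under 0.05, beside 1.69%, 0.163% and 0.00544% of 18382 genes called and 15.2%, 12.1% and 6.44% at an unadjusted p under 0.05. DESeq2 called 0 pairs in each region too. The plot of fold changes shows how closely each was measured. In NAc every receptor had a standard error of 0.20 to 0.23 on the log2 scale, while in PFC it ran from 0.11 for Oprl1 to 0.71 for Oprm1.

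**Figure D3:**
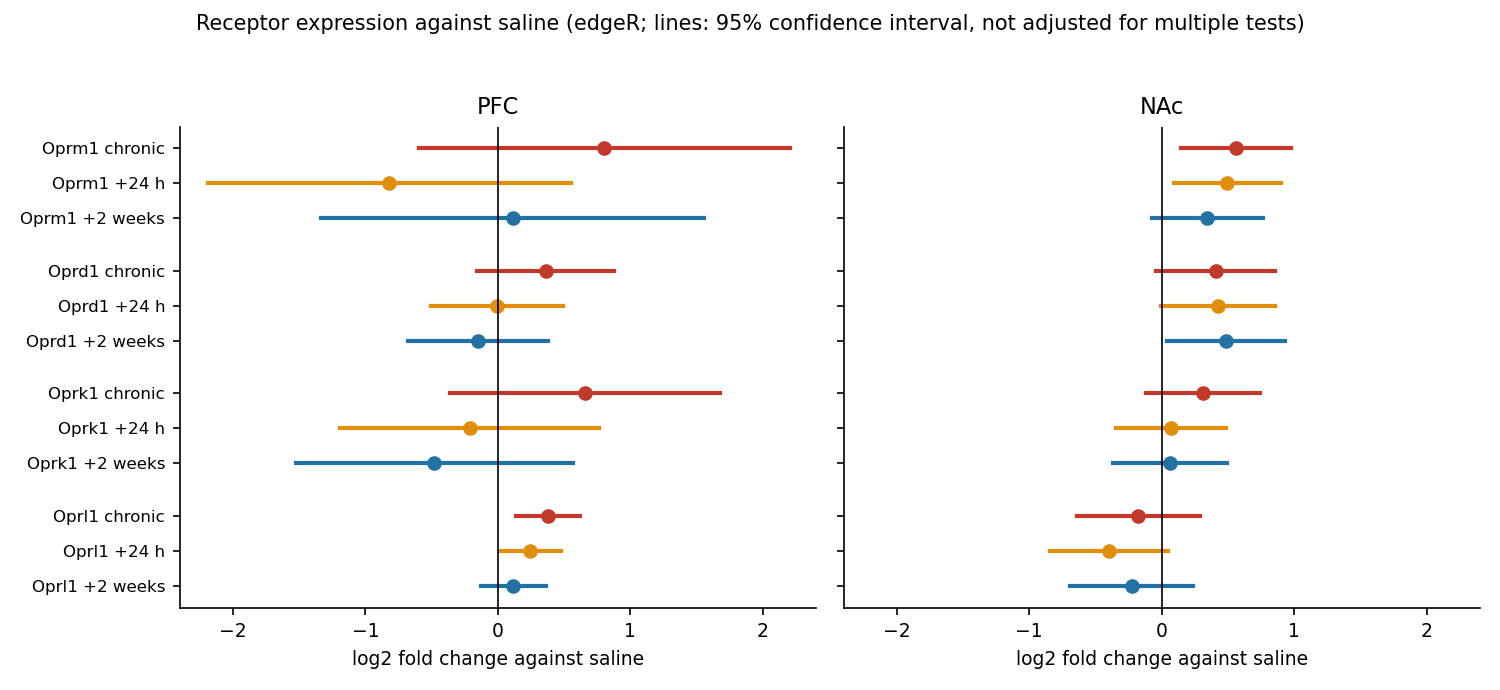
Log2 fold change against saline for each receptor and stage in PFC (left) and NAc (right), with lines giving the 95% confidence interval before any adjustment for multiple tests. The PFC intervals of Oprm1 and Oprk1 are wide, that of Oprm1 under chronic morphine running from -0.60 to 2.20, and all 3 NAc values of Oprm1 lie above 0.

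Oprm1 in NAc came nearest to the threshold in that region. Saline libraries had a lowest value of 1.37, a median of 1.68 and a highest value of 2.83 log2 CPM. Under chronic morphine these were 1.70, 2.55 and 2.70, at 24 h they were 1.98, 2.27 and 2.95, and at 2 weeks they were 1.46, 2.27 and 2.78. The groups overlapped, yet 8 of 8 chronic, 9 of 9 libraries at 24 h and 7 of 8 at 2 weeks lay above the saline median. The fold under chronic morphine was 1.48 (log2 0.56 ± 0.20 SE, 95% confidence interval 0.14 to 0.98, unadjusted p = 0.0103, edgeR adjusted p = 0.162). At 24 h it was 1.41 (0.50 ± 0.20, edgeR adjusted p = 0.312) and at 2 weeks 1.27 (0.35 ± 0.20, edgeR adjusted p = 0.849). These 3 values share the same 7 saline libraries. Across the other settings tried, the adjusted p under chronic morphine ranged from 0.0774 (2 surrogate variables) to 0.315.

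In NAc, Oprd1 had values of 0.41 ± 0.22 (chronic), 0.43 ± 0.21 (24 h) and 0.48 ± 0.22 (2 weeks) on the log2 scale, all SE, with edgeR adjusted p of 0.388, 0.418 and 0.715. Its saline libraries ranged from 2.83 to 4.11 log2 CPM, and every morphine group overlapped that range. Oprk1 had 0.31 ± 0.21, 0.07 ± 0.20 and 0.06 ± 0.21 (SE), and at 24 h its 95% confidence interval ran from -0.34 to 0.48. Oprl1 had -0.18 ± 0.23, -0.40 ± 0.22 and -0.22 ± 0.23, with edgeR adjusted p of 0.770, 0.471 and 0.917. Without saline number 2 these were -0.010, -0.22 and -0.059, and without number 25 the chronic value was -0.39. Its saline libraries ranged from 5.62 to 6.90 log2 CPM, and 1 of 8 chronic, 4 of 9 libraries at 24 h and 1 of 8 at 2 weeks lay below that range. The groups were not equal in striatal markers, the median striatal score being 7.34 in saline, 7.83 under chronic morphine, 7.54 at 24 h and 7.32 at 2 weeks. With the score in the model, the log2 fold change of Oprm1 under chronic morphine stayed at 0.56 ± 0.20, while that of Oprl1 at 24 h moved from -0.40 to -0.16 ± 0.10.

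In PFC, Oprl1 came nearest. Saline libraries ran from 5.15 to 5.52 log2 CPM with a median of 5.41. Chronic morphine libraries ran from 5.29 to 6.38 with a median of 5.66, those at 24 h from 5.47 to 5.76 with a median of 5.65, and those at 2 weeks from 5.15 to 5.81 with a median of 5.43. Above the highest saline library lay 6 of 8, 7 of 9 and 2 of 7 libraries. The chronic value was 0.38 ± 0.12 on the log2 scale (SE, 1.30-fold, unadjusted p = 0.00322, edgeR adjusted p = 0.261), that at 24 h 0.25 ± 0.11 (edgeR adjusted p = 1.0) and that at 2 weeks 0.12 ± 0.12 (edgeR adjusted p = 0.947). Number 25 had the highest Oprl1 of the region. Without it the chronic value was 0.22 (edgeR adjusted p = 0.629), and without number 27, whose sex genes go against its label, it was 0.46 (edgeR adjusted p = 0.0757).

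The other 3 receptors were less closely measured in PFC. Oprm1 counts ran from 4 to 26 in saline, 9 to 83 under chronic morphine, 0 to 32 at 24 h and 0 to 42 at 2 weeks, and the log2 fold changes were 0.80 ± 0.68, -0.82 ± 0.67 and 0.11 ± 0.71 (SE). The 95% confidence interval of PFC Oprm1 at 24 h ran from -2.19 to 0.55 and that at 2 weeks from -1.33 to 1.55, so large changes in either direction lie within it. Oprk1 counts ran from 20 to 100 in saline, 35 to 165 under chronic morphine, 7 to 68 at 24 h and 0 to 64 at 2 weeks, with log2 fold changes of 0.66 ± 0.50, -0.21 ± 0.48 and -0.48 ± 0.51. Oprd1, with 387 to 724 counts in saline, had 0.36 ± 0.25, -0.00 ± 0.24 and -0.15 ± 0.26. The smallest edgeR adjusted p of these values was 0.795. Without number 25 the chronic values were 0.07 for Oprm1 and 0.13 for Oprk1. Without saline number 5 Oprk1 was at 1.05 under chronic morphine and -0.084 at 2 weeks, and without number 9 at -0.80 at 2 weeks. Number 25 also stood at the end of the PFC libraries in tissue markers. Its mean of 4 claustrum and endopiriform markers (Nr4a2, Gnb4, Ntng2 and Synpr) was the highest of 30 at 5.64 log2 CPM (next 5.43). Its mean of 10 cortical projection neuron markers was the lowest at 6.15 (next 6.24). The residual correlation of the claustrum mean with Oprm1 was 0.60 in PFC, with Oprk1 0.53, with Oprl1 0.47 and with Oprd1 -0.08, and without number 25 these were 0.53, 0.46, -0.0014 and 0.21. The part of these markers in the chronic values was not tested.

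Recovery was examined by comparing 2 weeks after morphine with chronic morphine, which uses no saline library. In PFC all 4 receptors had negative log2 differences, -0.69 ± 0.66 for Oprm1, -0.51 ± 0.25 for Oprd1, -1.14 ± 0.49 for Oprk1 and -0.26 ± 0.11 for Oprl1 (SE). None was called, edgeR adjusted p being 0.292 to 0.664 with 3 of 4 at an unadjusted p under 0.05, beside 0.824% of all genes called and 13.8% at an unadjusted p under 0.05. The median over all genes was -0.07. Without number 25 the difference was -0.61 for Oprk1, -0.11 for Oprl1 and 0.03 for Oprm1. In NAc the differences were -0.22 ± 0.20 for Oprm1, 0.08 ± 0.21 for Oprd1, -0.25 ± 0.20 for Oprk1 and -0.05 ± 0.22 for Oprl1, with 0 of 4 called and 0 at an unadjusted p under 0.05, beside 1.88% and 12.8% of genes. Joint edgeR tests over the 3 stages called 0 receptors in PFC and 0 in NAc, beside 0.707% and 1.84% of genes, with 1 (PFC Oprl1) and 0 at an unadjusted p under 0.05, beside 8.73% and 14.9% of genes.

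Whether the effects differed between the regions was tested directly. No difference was called, by edgeR or DESeq2, for any of the 4 receptors in the joint test (1 at an unadjusted p under 0.05, edgeR adjusted p = 0.986 for each), beside 0.0363% of all genes called and 4.78% at an unadjusted p under 0.05. Stage by stage edgeR and DESeq2 called 0 of 12, with 3 in edgeR at an unadjusted p under 0.05, beside 0.0311% of genes under chronic morphine, 0.0208% at 24 h and 0.00519% at 2 weeks. Of all genes, 4.26%, 3.52% and 4.54% had an unadjusted p under 0.05 there. The NAc minus PFC difference of the log2 fold changes was -0.54 ± 0.26 (SE, unadjusted p = 0.0409) for Oprl1 under chronic morphine and -0.63 ± 0.25 (unadjusted p = 0.0151) at 24 h, and 1.34 ± 0.61 (unadjusted p = 0.0310) for Oprm1 at 24 h. All 3 had an edgeR adjusted p of 1.0.

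The title of the series refers to sex, so the effects were also taken in each sex. Of 12 receptor and stage pairs in each sex and region, edgeR and DESeq2 called 0. At an unadjusted p under 0.05 edgeR had 1 in PFC females, 0 in PFC males, 2 in NAc females and 1 in NAc males. The shares of all genes at that level follow in the order chronic, 24 h and 2 weeks. They were 6.03%, 3.77% and 9.65% in PFC females and 3.35%, 1.85% and 1.51% in PFC males. In NAc they were 11.5%, 10.7% and 4.44% in females and 10.5%, 7.11% and 7.41% in males. Of all genes in NAc, 0.609% were called in females under chronic morphine, 0.196% at 24 h and 0.00544% at 2 weeks, and 0.0653%, 0.0435% and 0.0762% in males. In PFC these shares were 0.189%, 0.039% and 0.00557% in females and 0.161%, 0.1% and 0.0111% in males. The pair with the smallest p of each region is described here, chosen after the values were seen. For Oprm1 in NAc, the 3 saline females had 1.37, 1.50 and 1.68 log2 CPM and the 4 saline males 1.63, 1.97, 2.47 and 2.83. The 3 libraries labelled female on chronic morphine had 2.32, 2.64 and 2.65, and the 5 males 1.70, 2.24, 2.45, 2.66 and 2.70. The saline females lay below the 3 libraries labelled female on chronic morphine, number 27 among them, while the males overlapped. How many of all genes separate such small groups was not counted. The log2 fold change under chronic morphine was 1.04 ± 0.32 in females (SE, edgeR adjusted p = 0.144) and 0.09 ± 0.26 in males (edgeR adjusted p = 0.911), and the test of their difference gave 0.95 ± 0.41 (unadjusted p = 0.0264, edgeR adjusted p = 0.674). Without number 27 the difference was 0.90 (unadjusted p = 0.0483), and neither the effects nor their difference passed the threshold with or without it. For Oprl1 in PFC, the chronic value was 0.58 ± 0.17 in females (edgeR adjusted p = 0.353) and 0.18 ± 0.16 in males, with a difference of 0.41 ± 0.23 (unadjusted p = 0.0927, edgeR adjusted p = 1.0). Without number 25 the value in females was 0.27 and the difference 0.089, and without number 27 they were 0.75 and 0.58, and none of these was called by edgeR. These Oprl1 values moved with single libraries.

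**Figure D4:**
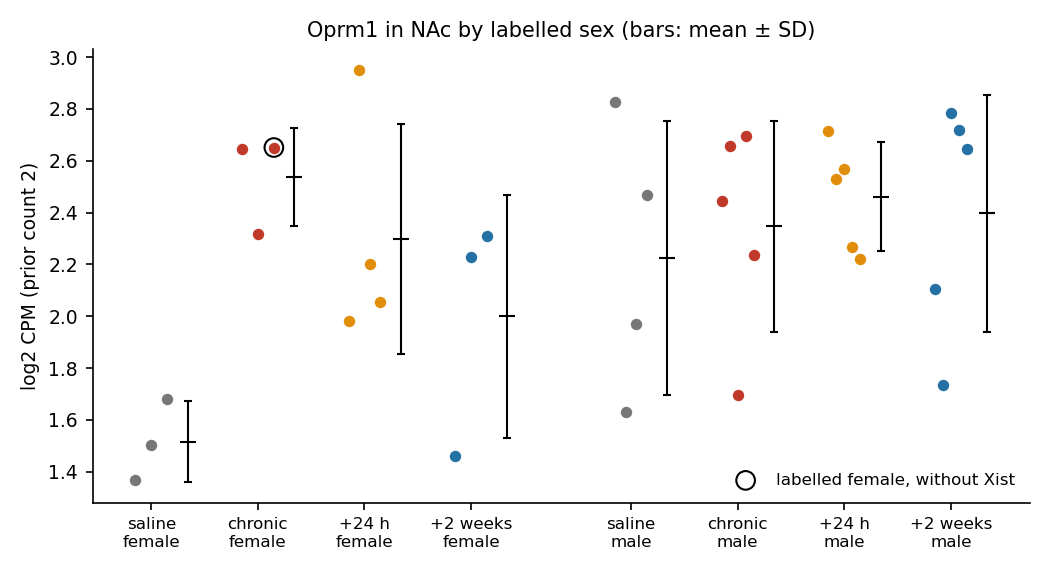
Oprm1 in NAc as log2 CPM (prior count 2) in each library, by treatment and labelled sex, with bars for the mean and SD of each group; the ring marks number 27, labelled female but without the Xist level of other females. The 3 saline females lie between 1.37 and 1.68 and the 3 libraries labelled female on chronic morphine at 2.32 to 2.65, while the male groups overlap. How many of all genes separate such small groups was not counted.

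Sex differences of the effects were called for 0 of 4 receptors in PFC and 0 of 4 in NAc by the joint edgeR test, with 0 at an unadjusted p under 0.05 in each and 0 by DESeq2, beside 0% and 0.0544% of all genes. In that edgeR test 4.71% of all genes in PFC and 9.56% in NAc had an unadjusted p under 0.05. Levels were also compared between females and males over all treatments. The largest difference in NAc was Oprm1 at -0.29 ± 0.14 on the log2 scale (SE, females minus males, unadjusted p = 0.0453, edgeR adjusted p = 0.918), and the largest in PFC was Oprm1 at 0.14 ± 0.48 (edgeR adjusted p = 0.980). No receptor was called in this comparison by edgeR or DESeq2, with 0 in PFC and 1 in NAc at an unadjusted p under 0.05, beside 0.0334% of genes called in PFC and 0.0598% in NAc, and 4.54% and 4.79% at an unadjusted p under 0.05.

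Much of the spread among NAc libraries went with the striatal score, and the receptors differed in this. The score was entered as a covariate beside treatment and sex, and its coefficient is the change in log2 expression per log2 unit of score. Oprl1 fell with the score, at -0.43 ± 0.04 (SE, edgeR adjusted p = 6.41e-09). In the 5 NAc libraries with the lowest scores it was at 6.33 to 6.90 log2 CPM, and in the 5 with the highest scores at 5.07 to 5.63. Oprk1 rose with the score at 0.29 ± 0.06 (edgeR adjusted p = 0.000443), from 4.10 to 4.76 in the lowest 5 to 5.28 to 5.72 in the highest 5. Oprd1 rose at 0.29 ± 0.07 (edgeR adjusted p = 0.00163), from 2.83 to 3.92 to 4.17 to 4.74. Oprm1 showed no such relation (0.01 ± 0.08, 95% confidence interval -0.16 to 0.18, edgeR adjusted p = 0.935). So 3 of 4 receptors were called, 1 lower and 2 higher, beside 43.1% of the 18886 genes tested (21.2% lower and 21.9% higher). Without numbers 6 and 25 the coefficients were -0.60 for Oprl1, 0.53 for Oprk1 and 0.40 for Oprd1, all still called, and -0.02 for Oprm1.

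**Figure D5:**
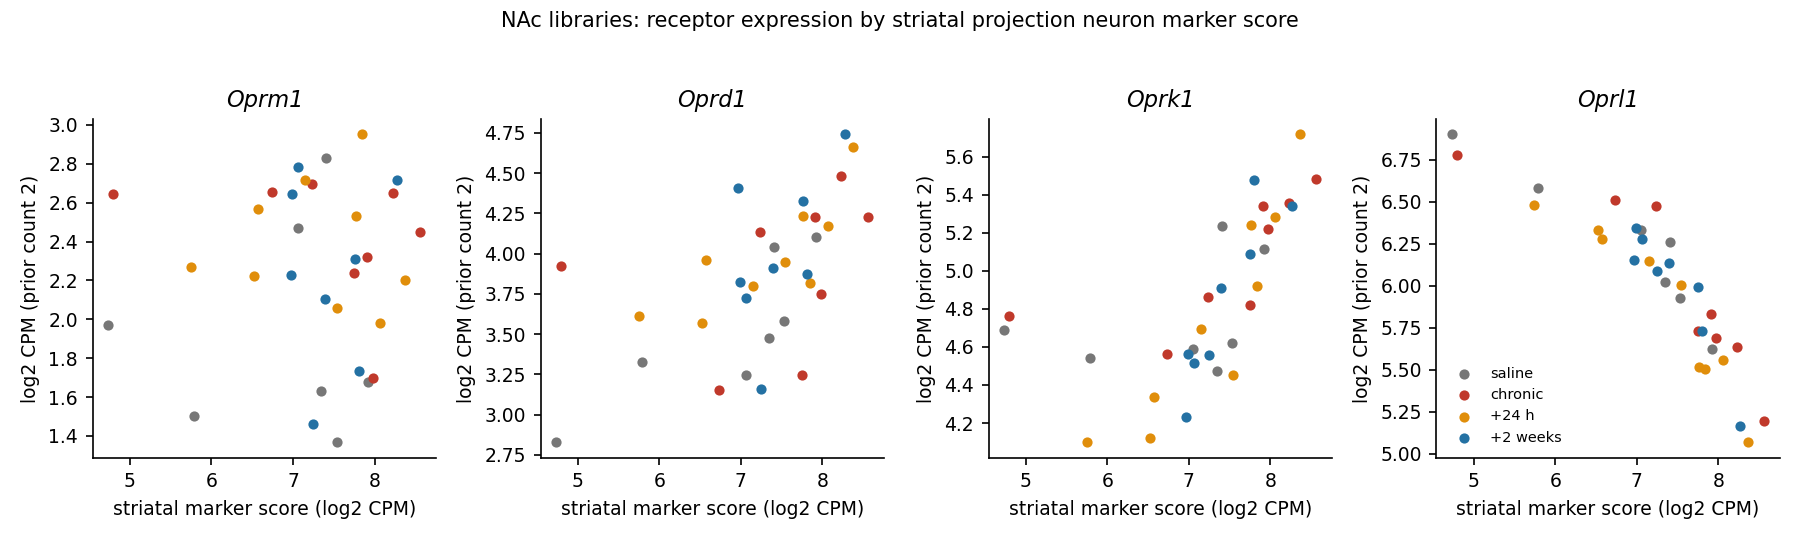
Log2 CPM (prior count 2) of each receptor against the striatal score, the mean log2 CPM of 12 striatal projection neuron markers, in the 32 NAc libraries, coloured by treatment. Oprl1 declines across the whole range of scores from 4.74 to 8.56, Oprk1 and Oprd1 rise, and Oprm1 shows no slope.

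Other tissue markers moved along the same axis. The mean of 8 markers of hypothalamus, septum and pallidum lay between 0.93 and 5.84 log2 CPM in NAc libraries, and between -2.88 and -1.31 in PFC libraries. Of these, Hcrt and Pmch, hypothalamic peptide genes, had NAc medians of -2.79 and -0.39 but reached 8.37 and 10.1 in single libraries. After removal of the means of treatment and sex, its Pearson correlation over the 32 NAc libraries was 0.71 with Oprl1, -0.52 with Oprk1, -0.32 with Oprd1 and -0.07 with Oprm1. The mean of 10 interneuron markers had an r larger in size with each receptor, at 0.83 with Oprl1, -0.72 with Oprk1, -0.57 with Oprd1 and -0.21 with Oprm1. That of 6 astrocyte markers had 0.65, -0.76, -0.37 and -0.04 in the same order. Markers of cortical projection neurons, claustrum, cholinergic neurons, microglia, endothelial cells and choroid plexus lay between -0.41 and 0.39 with every receptor. These correlations describe libraries that share tissue makeup, depth and handling, and the part of each marker list in the receptor values was not tested. Among sequencing measures, the share of reads that mapped to several places had an r of -0.55 with Oprm1 in NAc, and the share of ambiguous reads an r of -0.63 with Oprk1 and 0.58 with Oprl1.

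In PFC the score was narrower. Its coefficient was 1.76 ± 0.56 for Oprk1 (SE, edgeR adjusted p = 0.0137), 1.99 ± 0.86 for Oprm1 (edgeR adjusted p = 0.0642), 0.09 ± 0.20 for Oprd1 (0.737) and -0.04 ± 0.08 for Oprl1 (0.726), so 1 of 4 was called beside 40.4% of 18536 genes (29.7% higher and 10.7% lower). The Oprk1 call rested on number 10, the shallow library. Without it the coefficient was 1.50 with an edgeR adjusted p of 0.720, and those of Oprd1 and Oprl1 changed sign, to -0.70 and 0.72, neither called.

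The receptors were then set beside the precursors of their peptides in NAc, with the same residual correlations over 32 libraries and no test. Oprl1 went with Pnoc, the precursor of its own ligand, at r = 0.92 and against Penk (-0.87) and Pdyn (-0.83). Oprk1 went with Pdyn, the precursor of its ligand, at 0.71, but also with Penk at 0.65, and against Pnoc (-0.71) and Oprl1 (-0.75). Without the libraries far in striatal score its values with Pdyn and Penk were 0.80 and 0.79. Oprd1 had 0.56 with Penk, 0.51 with Pdyn and 0.62 with Oprk1. Oprm1 stayed between -0.10 and 0.33 with the other receptors and all 4 precursors, Pomc included. Penk is itself 1 of the 12 genes of the striatal score, and the part of the score in these correlations was not tested. The pairs differed in PFC, over 30 libraries. There Oprl1 had an r of 0.39 with Pnoc, Oprk1 -0.46 with Pdyn, and Oprd1 0.03 with Penk.

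By the same measure, the 3 genes most like a receptor were named among those with a mean of at least 1 log2 CPM. For Oprl1 in NAc these were Gabra3, a subunit of the GABA-A receptor, Resp18 and Mrap2, an accessory protein of melanocortin receptors, each at r = 0.98. For Oprk1 they were Spock3, Cdh11, a cadherin, and Zfp385b at 0.83 to 0.84, and for Oprd1 Gpr158, an orphan receptor, Rgs7bp, a protein that binds RGS regulators of G proteins, and Adam23 at 0.87 to 0.90. For Oprm1 they were Clasp1, a microtubule-binding protein, Arfgef3 and Huwe1, a ubiquitin ligase, at 0.82 to 0.83. In PFC, over 30 libraries, Oprl1 was most like Calb2 (calretinin), Nrsn2 and Nova1, an RNA-binding protein, at 0.75 to 0.76. Oprm1 was most like Chrm2, a muscarinic receptor, Zfp608 and Akap10 at 0.83 to 0.85, and Oprk1 like Gm12174, Nup37 and Ufd1 at 0.86 to 0.89. Without the libraries far in striatal score, the first 3 for Oprk1 were Rxrg, Btbd19 and Syndig1 in NAc and Sms, Prkra and Gm12174 in PFC. The other sets given here also changed in part, apart from that of Oprm1 in NAc.

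Next to Oprd1, the annotated locus Gm37711 (type TEC, chr4:132104830-132109363) starts 1363 bases beyond the 3′ end of Oprd1 on the same strand. Its residual correlation with Oprd1 was 0.84 in NAc and 0.37 in PFC, and its medians were 2.65 and 3.16 log2 CPM. Like Oprd1 it was at a lower level in NAc, where its difference passed the test (log2 difference -0.42 ± 0.11 SE, edgeR adjusted p = 0.000982). It is a separate row of the deposited table.

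Finally, 51 genes that make, process or carry the receptor signal were followed in 3 lists. The lists hold 10 opioid peptide and processing genes, 20 receptor partners and regulators such as arrestins, receptor kinases and RGS proteins, and 21 effectors such as G protein alpha subunits, potassium and calcium channels and adenylyl cyclases. All 51 were tested, and edgeR called 0 in every stage, recovery and joint contrast of both regions. At an unadjusted p under 0.05 there were 10 under chronic morphine in NAc, 4 at 24 h and 1 at 2 weeks, and 4, 0 and 1 in PFC. The shares of all genes were the 15.2%, 12.1% and 6.44% in NAc and 7.91%, 3.01% and 5.04% in PFC given above. The list medians under chronic morphine in NAc were 0.29, 0.04 and 0.07 on the log2 scale in the order above, beside -0.01 over all genes. Nearest the threshold was Gnai3, an inhibitory G protein subunit, in the recovery contrast of PFC at 0.44 ± 0.12 (SE, edgeR adjusted p = 0.0831).

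Between regions, by contrast, 44 of the 51 genes were called over all treatments, 18 higher and 26 lower in NAc, beside 36.5% of all genes called higher and 29.7% lower. The effectors leaned lower, with 13 lower and 5 higher of 21 and a median of -0.32 beside 0.07 over all genes. Adcy1, a calcium-stimulated adenylyl cyclase, was lower by a log2 difference of -3.03 ± 0.11 (SE, edgeR adjusted p = 5.97e-30), and Kcnj9, a potassium channel subunit opened by G proteins, by -1.83 ± 0.08 (3.58e-27). Among partners, 9 were higher and 8 lower, and Grk2, the kinase that phosphorylates activated receptors, was lower by -1.18 ± 0.04 (2.52e-32) and Rgs7 by -0.89 ± 0.04 (1.65e-26). Of the peptide genes, 4 were higher and 5 lower, and Penk was higher by 4.64 ± 0.18 (edgeR adjusted p = 1.13e-28).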

How the data were processed

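The authors deposited raw read counts per mouse gene, whole numbers with 1 column per library, per the file headers. The submitters' processing notes name FastQC, cutadapt, STAR, RSEM, Trimmomatic, HISAT2 and the build GRCm38 without their roles, and the counting program is not given in the sources used here. Rows for unassigned reads were left out, with median shares of 5.43% (no feature), 0.832% (ambiguous), 0.334% (low quality), 0.566% (not aligned) and 14.7% (several places). Each region was fitted with edgeR 4.0.16 (R 4.3.3, limma 3.58.1; quasi-likelihood test, TMM, filterByExpr), with 1 mean per treatment and sex and contrasts averaged over the sexes. All 62 libraries entered 1 further fit for the regions. A gene is said to be called when its p, adjusted by the Benjamini-Hochberg method over every gene tested, is under 0.05. The procedure was run on simulated data for chronic morphine against saline in each region. Changes were set only in genes with a positive mean log2 CPM. Oprm1 in PFC has a negative mean, so the simulation does not cover it. Log2 CPM used a prior count of 2. Positions, lengths and coding sequences came from GENCODE M21 (GRCm38). The alternatives tried were size factors by the median of ratios (RLE), no low-count filter, DESeq2 1.42.0, an additive sex term, the striatal score, 2 surrogate variables (sva 3.50.0), a replicate block, and leaving out libraries. The members and lists were chosen with earlier results of these data known. Leaving out number 27, and every alternative for the striatal score coefficient, were chosen after seeing the data, as was leaving out the far libraries when comparing regions. Named genes are the 4 receptors, their overlapping or nearest genes, the 3 genes most like each receptor in each region (the set of Oprd1 in PFC, and 1 marker list, are not reported here), and called genes of the pathway lists, up to 5 per contrast. Gnai3, the peptide precursors, marker genes and the replacement genes without far libraries were named after their values were seen.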

Additional observations from a re-analysis of the deposited data

Results flagged for a closer look

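In 6 of 32 groups of 6 to 9 libraries (each receptor, region and treatment), the lowest or highest library stood apart from the rest by Dixon's criterion at 95%, which chance meets in about 1 in 20 groups. In PFC on chronic morphine, number 25 was highest for Oprm1, at 1.54 log2 CPM with the next library at 0.06, and for Oprl1, at 6.38 with the next at 5.79. It was also highest for Oprk1 there, at 2.52, without standing apart. In PFC at 24 h, number 20 was lowest for Oprd1 at 2.68, with the next at 3.81, and number 18 was lowest for Oprk1 at -1.52, with the next at -0.01. In PFC at 2 weeks, the shallow number 10 was lowest for Oprk1 at -3.96, which stands for 0 counts, with the next at -0.28. In NAc on chronic morphine, number 30 was lowest for Oprm1 at 1.70, with the next at 2.24.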

How the results depend on the processing

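The tests of stage, recovery and sex within a region, which leave out the score coefficients, called no receptor in 1922 values with 1 library left out. Under other settings none was called in 502 values, which also hold the joint tests of the region differences. The same 3 receptors were called higher in NAc in every setting tried. Of 755 values under other settings, 726 were labelled the same, as were 2136 of 2170 with 1 library left out. For effects this means the same sign and side of the threshold, and for joint tests the same side. Counts of calls were the same if they moved by at most 1.5 times. Levels per length were the same if they moved by no more than the SD of the libraries. Oprd1 alone changed its regional call: with an additive sex term its NAc minus PFC difference was -0.26 (edgeR adjusted p = 0.0381). The changes of sign below were in values that were not called, and their cause was not tested. With the striatal score as covariate, NAc Oprk1 was -0.10 at 24 h and -0.12 at 2 weeks, NAc Oprl1 0.037 at 2 weeks and 0.048 for 2 weeks minus chronic, PFC Oprd1 0.00028 at 24 h, PFC Oprm1 -0.0092 at 2 weeks, and the PFC sex difference of Oprk1 0.12. With 2 surrogate variables, NAc Oprl1 was 0.063 under chronic morphine and 0.0080 at 2 weeks, NAc Oprk1 -0.20 at 24 h and -0.12 at 2 weeks, and the PFC sex difference of Oprk1 0.034. Without the libraries far in striatal score, NAc Oprl1 was 0.18 for 2 weeks minus chronic, the PFC sex difference of Oprk1 0.065, and the region difference of Oprm1 at 2 weeks -0.025. The score coefficients were then -0.019 for NAc Oprm1, -0.70 for PFC Oprd1, 0.72 for PFC Oprl1 and 1.50 for PFC Oprk1, which was no longer called. Without number 27, the score coefficient of NAc Oprm1 was -0.00045, the PFC sex difference of Oprk1 0.057, and the region difference of Oprd1 under chronic morphine -0.0066.

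With 1 library left out, 22 of 32 stage and recovery values, none of them called, moved by over 1.5 times at an extreme. Signs changed in NAc for Oprd1 (-0.039 to 0.23) and Oprl1 (-0.15 to 0.17) in 2 weeks minus chronic, for Oprk1 at 24 h (-0.048 to 0.17) and 2 weeks (-0.067 to 0.16), and for Oprm1 in males under chronic morphine (-0.075 to 0.32). They changed in PFC for Oprd1 (-0.14 to 0.13) and Oprk1 (-0.48 to 0.18) at 24 h, Oprm1 at 2 weeks (-0.27 to 0.35) and in 2 weeks minus chronic (-1.06 to 0.032), and the sex differences of Oprk1 (-0.30 to 0.15) and Oprm1 (-0.22 to 0.33). Libraries with the same number in both regions correlated at 0.0075 to 0.22 in their deviations from group means over 30 pairs. All 30 were above 0 and 14 of 30 correlated best with their own number, a hint from the data that numbers are shared animals, which the labels do not say. Only 5 were over 0.1, so the criterion that every pair exceed it was not met and no block entered the reported fits. The replicate block left the 3 regional calls, gave Oprd1 an edgeR adjusted p of 0.111, and turned the region difference of Oprm1 under chronic morphine to 0.046. Low counts limit PFC Oprm1 (median 13.5) and Oprk1 (median 40) most.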
